A study of Ganoderma lucidum with 6 samples.

Results

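The genes described here are the urea transporter and the amine oxidases of Ganoderma lucidum, a wood-decaying basidiomycete. They were chosen by a rule on annotation that was set with earlier results of these data known. KOG descriptions name groups of related eukaryotic proteins. The rule took every gene whose KOG description holds the words urea transporter, urease or amine oxidase, and left out arginases. The rule found 5 of the 16113 genes in the table, namely 1 urea transporter, 1 gene described as amine oxidase and 3 described as copper amine oxidase. No description held the word urease, so the label urease had no gene under the rule. Gene models with a urease identifier in the GO annotation, a separate vocabulary of functions, are given beside the 5 genes.

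RNA sequencing was done on wild-type mycelia grown for 3 days with sodium nitrate (NaNO3, 3 libraries) or with ammonium sulfate ((NH4)2SO4, 3 libraries). AreA, a transcription factor whose silencing the series title names, is silenced in no library analysed here by its label. The salts differ in sodium and sulfate as well as in the form of nitrogen, and these cannot be told apart. The labels do not state whether the libraries came from separate cultures, and p-values therefore measure the spread between the libraries, which may be technical. The word hydrophobin, a marker of fungal mycelium that was looked for, is in no annotation column, so the label mycelia was not checked in this way.

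Fungi take up urea with a transporter that couples it to the movement of ions. The same kind of transporter in Saccharomyces cerevisiae also carries polyamines. Urease, an enzyme that needs nickel, splits urea into ammonia and carbon dioxide, and helper proteins load the nickel. Copper amine oxidases use copper and a quinone to turn primary amines into aldehydes, and release ammonia and hydrogen peroxide. Other amine oxidases, which use flavin, include those that cut spermine and spermidine. In Aspergillus nidulans, genes for the use of such secondary nitrogen sources are known to be kept low while ammonium is plentiful.

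Total gene counts per library were 19979528 to 24767602 in nitrate and 24059697 to 27604895 in ammonium. With edgeR's quasi-likelihood test and an adjusted p (Benjamini-Hochberg) below 0.05 as the threshold, 1874 of 11993 tested genes were called. Without 1 library that number lay between 655 and 1946. It moved by over 1.5 times without nitrate replicate 2 (1133) or 3 (701) and without ammonium replicate 2 (794) or 3 (655). The libraries numbered 1 in both groups stood at opposite ends of the second principal component, which held 29.9% of the variance. Without both of them 4898 genes were called, in a fit of 2 against 2 libraries chosen after the data were seen.

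Of the 5 genes, 4 rose in nitrate and 1 did not pass the test, and none fell. Over all tested genes 15.6% were called, 7.5% higher and 8.13% lower. The median log2 fold change, nitrate over ammonium, was 2.23 over the 5 genes and 0.01 over all tested genes. The 3 libraries of nitrate lay wholly above those of ammonium in the same 4 genes, while the groups did not overlap in either direction in 37% of tested genes and lay with nitrate higher in 19.1%. All 5 genes passed the filter on low counts. In bulk mycelia, fewer cells of a kind and less RNA per cell cannot be told apart. With 5 genes, and a rule set with earlier results known, these counts describe the genes and stand for no wider group. Levels below are FPKM, read fragments scaled to gene length and library size, and each fold change is a log2 value, nitrate over ammonium, given with its standard error (SE).

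**Figure D1:**
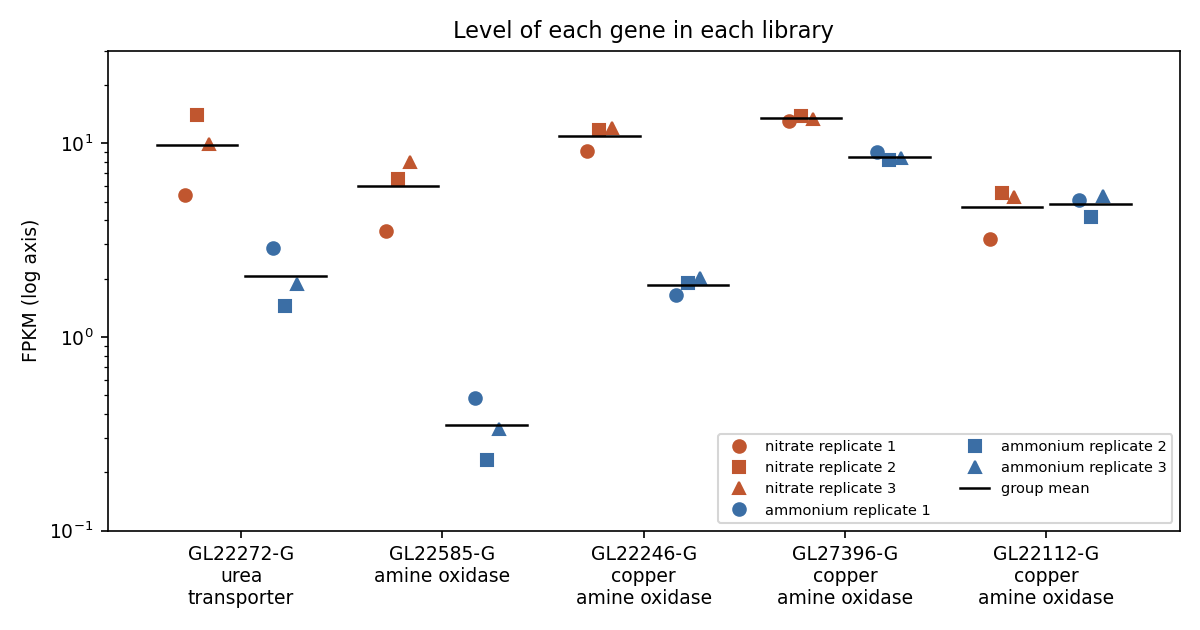
FPKM on a log axis of the 5 genes in each library, nitrate left and ammonium right of each pair, with symbols for replicate numbers and black lines for group means. Nitrate libraries lie above ammonium libraries in GL22272-G, GL22585-G, GL22246-G and GL27396-G, and the groups overlap in GL22112-G.

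The urea transporter GL22272-G lies on scaffold 19 at 467846 to 470840 on the plus strand. Its GO identifiers name urea transport, putrescine and spermidine transport, and the plasma membrane. It had 5.43, 14.0 and 9.91 FPKM in nitrate replicates 1 to 3, against 2.87, 1.44 and 1.87 FPKM in ammonium replicates 1 to 3. Every nitrate library was above every ammonium library, and the nitrate libraries were spread widely, with replicate 1 the lowest. The log2 fold change was 2.23 ± 0.36 (SE, n = 3 and 3, adjusted p = 0.00724, edgeR), with a 95% interval of 1.40 to 3.06. In the 6 fits that each lacked 1 library the call held (adjusted p = 0.00183 to 0.0457). In the ammonium libraries the gene rested on 93 to 170 counts, and in the nitrate libraries on 318 to 843.

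GL22585-G, the gene described as amine oxidase without copper, lies on scaffold 2 at 1664584 to 1666565 on the minus strand. Its GO identifiers are those of oxidases acting on spermine, spermidine and their acetylated forms, which cut polyamines. It had 3.52, 6.52 and 8.03 FPKM in nitrate, against 0.484, 0.232 and 0.336 FPKM in ammonium. The ammonium libraries were all close to the bottom of the range, with 11 to 20 counts each, and its mean there was above that of only 0.984% of tested genes. The mean in nitrate was above that of 35.0% of them. The log2 fold change was 4.02 ± 0.37 (SE, adjusted p = 0.000767, edgeR), the eighth highest of all tested genes, and the call held without any 1 library (adjusted p = 0.000378 to 0.00861). On the log2(FPKM + 1) scale, which understates changes of low genes, it was 2.32 (limma with no filter, adjusted p = 0.00457).

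The copper amine oxidases did not move alike. GL22246-G, on scaffold 19 at 116003 to 119106 on the plus strand, carries identifiers for primary amine oxidase activity, copper binding and the plasma membrane. Its KEGG entry places it in tyrosine, phenylalanine, glycine and beta-alanine metabolism. It had 9.14, 11.7 and 12.0 FPKM in nitrate, against 1.64, 1.90 and 2.02 FPKM in ammonium. The libraries within each group lay close together. Its log2 fold change was 2.54 ± 0.18 (SE, adjusted p = 0.000426, edgeR), and the call held without any 1 library (adjusted p = 0.000438 to 0.00391).

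GL27396-G, on scaffold 18 at 340623 to 343413 on the plus strand, has the same activity identifiers, and others that place it in the cytosol. It had 13.0, 13.8 and 13.4 FPKM in nitrate, against 9.05, 8.15 and 8.35 FPKM in ammonium. The groups did not overlap, and the difference was small, at a log2 fold change of 0.65 ± 0.14 (SE, adjusted p = 0.0212, edgeR). The call was lost without nitrate replicate 2 (adjusted p = 0.0699) or 3 (0.0725) and without ammonium replicate 2 (0.0869) or 3 (0.087), with log2 fold changes of 0.62 to 0.68 over the 6 fits without 1 library.

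GL22112-G, on scaffold 18 at 558411 to 561265 on the minus strand, carries the peroxisome identifier beside those of primary amine oxidase. It had 3.21, 5.54 and 5.29 FPKM in nitrate, against 5.10, 4.17 and 5.35 FPKM in ammonium. The groups overlapped, and nitrate replicate 1 was the lowest library. The log2 fold change was -0.08 ± 0.22 (SE, adjusted p = 0.846, edgeR), with a 95% interval of -0.59 to 0.43. Without nitrate replicate 1 it was 0.10, still past no threshold (adjusted p = 0.758).

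Taking the copper amine oxidases as a set, their summed level was 29.1 ± 3.18 FPKM in nitrate and 15.2 ± 0.886 FPKM in ammonium (SD, n = 3 each). GL22246-G made up 36.0%, 37.7% and 39.1% of that sum in nitrate, against 10.4%, 13.3% and 12.8% in ammonium. GL22112-G made up 15.9% ± 2.84 in nitrate and 31.9% ± 2.39 in ammonium. GL27396-G held the largest share in every library, at 46.5% ± 4.21 in nitrate and 55.9% ± 2.42 in ammonium. The log2 ratio of GL22246-G to GL22112-G was 1.26 ± 0.225 in nitrate and -1.39 ± 0.252 in ammonium, so the order of this pair was turned round. None of these groups of 3 values overlapped. Their exact two-sided permutation p was 0.1, the smallest that 3 against 3 libraries allow, and 0.1 after Benjamini-Hochberg adjustment over 10 such quantities. The 3 shares add up to the whole, so a rise of 1 lowers the others and they are not separate results. The share of GL22112-G fell although its own level overlapped between groups (mean 4.68 FPKM in nitrate and 4.87 FPKM in ammonium). How the counting treated reads that fit more than 1 of these models is not stated in the labels or file headers. Their sequences were not compared.

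**Figure D2:**
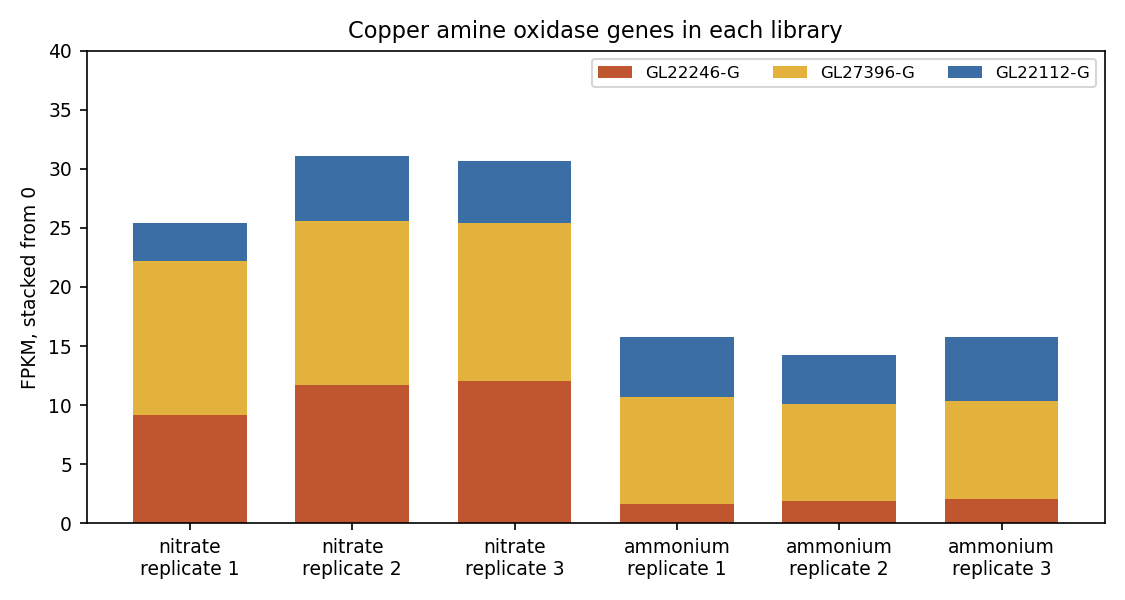
Stacked FPKM of the copper amine oxidase genes in each of the 6 libraries, nitrate left, with bars starting at 0. The GL22246-G segment is 9.14 to 12.0 FPKM in nitrate and 1.64 to 2.02 FPKM in ammonium, while the GL22112-G segment overlaps between groups.

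Among the 5 genes, the order of levels differed between the salts. In nitrate it was GL27396-G, GL22246-G, GL22272-G, GL22585-G and GL22112-G from high to low. There GL27396-G lay above GL22246-G in all libraries, and each other neighbouring pair overlapped in range. In ammonium the order was GL27396-G, GL22112-G, GL22272-G, GL22246-G and GL22585-G. There GL22272-G and GL22246-G overlapped, and the other neighbours did not. All 5 genes were of middling or low level among tested genes, from 30.4% to 52.3% of which had a lower mean in nitrate and from 0.984% to 41.8% in ammonium.

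Urease itself was looked for through GO identifiers, a choice made after the annotation was seen. The models with the urease identifier are GL25823-G, on scaffold 8 at 1047289 to 1050472, and GL29836-G, on scaffold 1 at 116438 to 119766. Neither passed the test. GL25823-G stood at 13.7 ± 1.13 FPKM in nitrate and 11.1 ± 0.828 FPKM in ammonium (SD, n = 3 each), with a log2 fold change of 0.29 ± 0.14 (SE, adjusted p = 0.205, edgeR) and a 95% interval of -0.04 to 0.63. GL29836-G stood at 8.16 ± 1.31 and 6.46 ± 1.24 FPKM in nitrate and ammonium, with a log2 fold change of 0.33 ± 0.18 (adjusted p = 0.243) and an interval of -0.08 to 0.74. Without both libraries numbered 1, GL29836-G passed (0.55, adjusted p = 0.0194). The intervals of both models end below the 1.40 at which the interval of the urea transporter begins. The log2 ratio of the transporter to the summed urease models was -1.82, -0.76 and -1.19 in nitrate, against -2.73, -3.47 and -3.23 in ammonium. The transporter was thus below the sum of both urease models in every library, although in nitrate replicates 2 and 3 it was above GL29836-G alone (9.02 and 8.80 FPKM). The groups of ratios did not overlap (exact two-sided permutation p = 0.1, the smallest possible, among the same 10 quantities).

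A further 3 models have the nickel-binding identifier without that of urease, of the kind urease helper proteins carry. GL18783-G, which also has the identifiers of GTP binding and urea metabolism, stood at 5.06 ± 0.873 FPKM in nitrate and 2.40 ± 1.10 FPKM in ammonium (SD, n = 3 each). Its log2 fold change was 1.06 ± 0.31 (SE, adjusted p = 0.0555, edgeR). It passed without ammonium replicate 1 (1.44, adjusted p = 0.0123), without both libraries numbered 1 (1.55) and by DESeq2 (adjusted p = 0.0175), and over all its alternatives adjusted p lay between 0.00065 and 0.189. GL31234-G and GL30310-G had log2 fold changes of -0.25 and 0.09 (adjusted p = 0.441 and 0.775).

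Urea can also pass through aquaporins, and the aquaporin genes GL25783-G and GL25673-G carry the urea transport identifier. The abundant GL25783-G stood at 91.9 ± 7.36 FPKM in nitrate and 87.4 ± 18.8 FPKM in ammonium (adjusted p = 0.833, edgeR), and GL25673-G at 0.685 ± 0.152 and 0.972 ± 0.502 FPKM in nitrate and ammonium (adjusted p = 0.439). Neither passed the test.

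**Figure D3:**
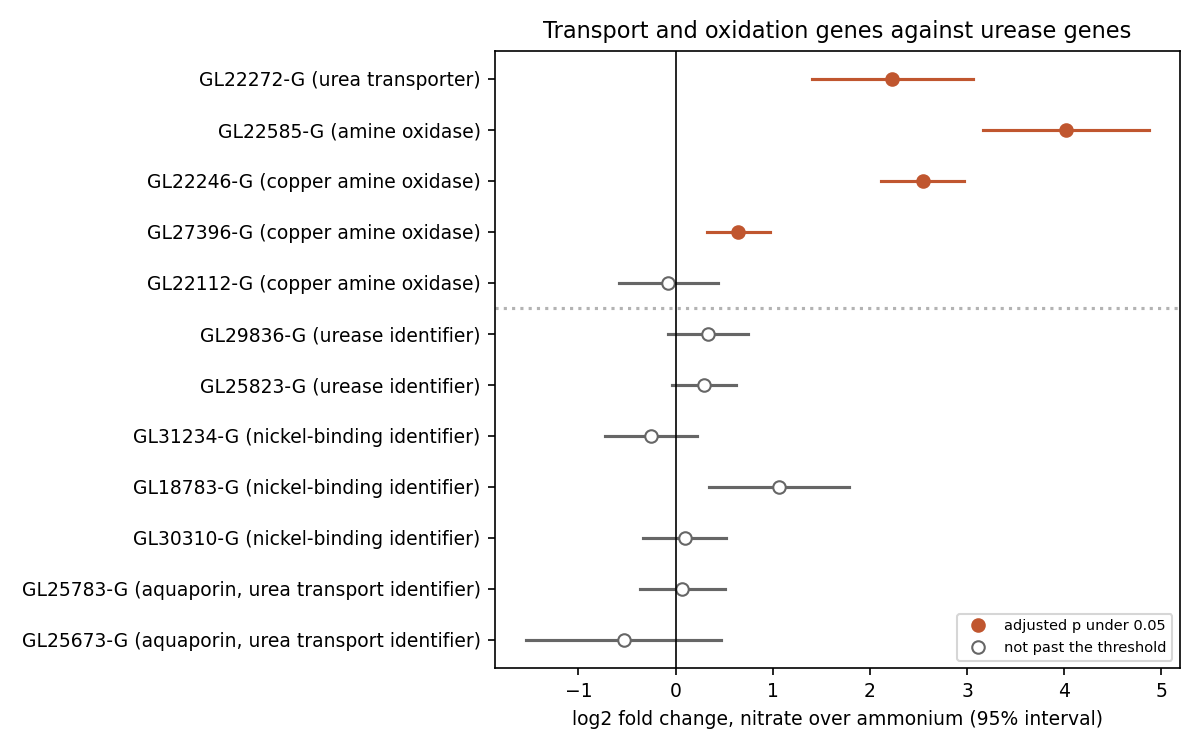
Log2 fold change of nitrate over ammonium with its 95% interval (edgeR) for the 5 genes above the dotted line, and for the models with identifiers of urease, nickel binding and urea transport below it. Filled points passed an adjusted p of 0.05. The intervals of the urease models (-0.08 to 0.74 and -0.04 to 0.63) end to the left of that of GL22272-G (1.40 to 3.06).

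The spread within groups was not shared evenly. On the log2 CPM scale (counts scaled to library size), GL22272-G lay 0.65 under its group mean in nitrate replicate 1 (deviation -0.65) and 0.47 above it in ammonium replicate 1. GL22585-G had deviations of -0.59 and 0.38 in the same libraries. The deviations of GL27396-G stayed between -0.06 and 0.05 in all 6. Leaving out both libraries numbered 1 gave log2 fold changes of 2.77 for GL22272-G, 4.49 for GL22585-G, 2.51 for GL22246-G and 0.64 for GL27396-G, each past the threshold (highest adjusted p = 0.00717).

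**Figure D4:**
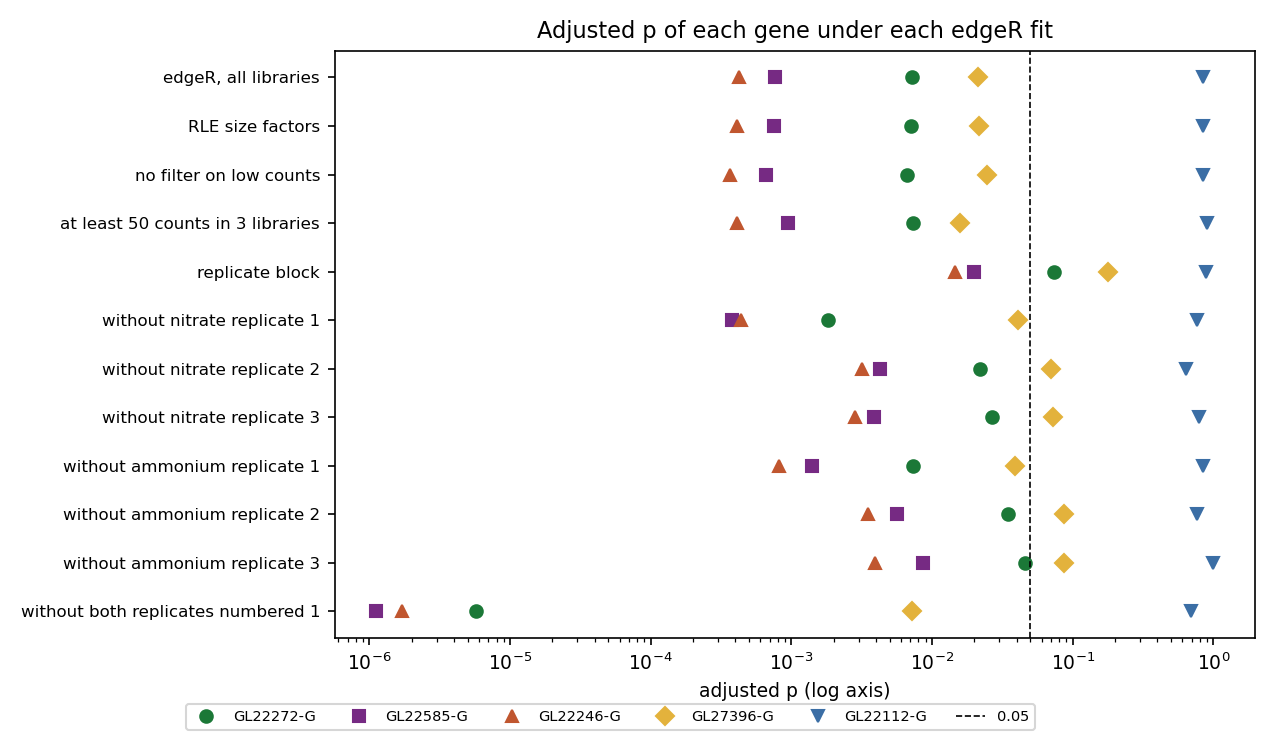
Adjusted p on a log axis of each of the 5 genes under each edgeR fit, 1 row per fit, with a dashed line at 0.05. GL22585-G and GL22246-G lie left of the line in every fit shown, GL22272-G in every fit but that with the replicate block (0.0731), GL27396-G lies right of it in 5 fits, and GL22112-G in all. With that block 1.88% of tested genes were called.

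No model of the 5 genes overlaps another gene model. The nearest neighbour was GL22277-G, a gene described as an RNA polymerase I-associated factor, which lies on the minus strand with its end 66 bases beyond the end of GL22272-G, so that the pair runs toward each other. It stood at 127 ± 13.2 FPKM in nitrate and 107 ± 20.3 FPKM in ammonium (adjusted p = 0.515, edgeR). No label or file header says whether counting used strand, and the part of that neighbour in the reads of GL22272-G was not tested. Over all tested genes, 7.5% were called higher and 8.13% lower, so few calls are looked for among so few neighbours. Of the 10 gene models directly before or after the 5 genes, 8 were tested, none was called higher and 2 were called lower. One was the glucose-6-phosphate isomerase GL22245-G, an enzyme of sugar metabolism, which ends 389 bases before GL22246-G (log2 fold change -1.31, adjusted p = 0.0121, and 0.0567 without nitrate replicate 3). The other was the flavin-containing monooxygenase GL21995-G, which starts 953 bases after GL27396-G and overlaps another model (log2 fold change -1.25, adjusted p = 0.0042).

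Genes of like pattern were ranked by Pearson's r of log2 CPM over the 6 libraries, among 11378 tested genes with a mean of at least 1 FPKM in either group. With so few libraries in 2 separated groups, many genes reach a high r, and the values are a description. Nearest to GL22272-G were GL23987-G, GL27671-G and GL18877-G (r = 0.996, 0.994 and 0.994). Nearest to GL22585-G were GL16333-G, GL15024-G and GL28728-G (0.999, 0.997 and 0.996). GL27487-G, GL17568-G and GL28959-G were nearest to GL22246-G (0.999, 0.998 and 0.998), and GL29406-G, GL17797-G and GL15818-G to GL27396-G (0.997, 0.996 and 0.996). The table gives none of these 12 genes a KOG description, which only 4997 of its 16113 genes have. Of the 12, GL15818-G did not pass the test (adjusted p = 0.11, edgeR).

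Enzymes and carriers that supply or follow urea and amines were taken as a word list on the KOG descriptions. Of 78 genes, 75 were tested, 10 rose, 12 fell and 53 did not pass. That is 29.3% called, against 15.6% of all tested genes, and the list's median log2 fold change was -0.06. The number called higher was 5 without nitrate replicate 2, nitrate replicate 3 or ammonium replicate 3, and 3 without ammonium replicate 2. The number called lower was 4 without nitrate replicate 3, 6 without ammonium replicate 2 and 5 without ammonium replicate 3. Without both libraries numbered 1, the counts were 21 higher and 20 lower. The wording also took in 11 tested genes of other roles, such as ceramidases and GPI transamidases, none of which was called.

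Among the carriers and the enzymes that make urea and polyamines, the uridine, thiamine and allantoin permeases had 4 of 5 tested genes called higher. Over all tested genes that share was 7.5%. GL20717-G had an adjusted p of 0.000132. GL24276-G stood at 15.0 ± 0.924 FPKM in nitrate and 5.58 ± 0.765 FPKM in ammonium (SD, n = 3 each, adjusted p = 0.00262). GL26007-G stood at 21.6 ± 6.67 FPKM in nitrate and 7.78 ± 1.28 FPKM in ammonium (adjusted p = 0.00724). The calls of GL20717-G, GL24276-G and GL26007-G held without any 1 library. That of GL23092-G, named with its values known (adjusted p = 0.0182), was lost in 4 of 6 such fits (highest adjusted p = 0.0729). Agmatinase cuts agmatine into urea and putrescine. GL25071-G, which belongs to the arginase family and has the agmatinase identifier, stood at 148 ± 57.4 FPKM in nitrate and 44.0 ± 12.2 FPKM in ammonium (adjusted p = 0.0107). Its call was lost without ammonium replicate 2 (adjusted p = 0.0518) or 3 (0.0605).

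Of 9 tested enzymes of arginine and ornithine metabolism, 2 rose and 3 fell, against 7.5% higher and 8.13% lower in the whole table. Without ammonium replicate 2 none of them was called (0 and 0), and the counts of higher and lower genes were 1 and 0 without nitrate replicate 3, 1 and 1 without ammonium replicate 3, 1 and 2 without nitrate replicate 2 or ammonium replicate 1, and 2 and 3 without nitrate replicate 1. The next genes were chosen after their values were seen. A second gene with the agmatinase identifier, GL30578-G, stood at 27.2 ± 2.50 FPKM in nitrate and 15.2 ± 3.29 FPKM in ammonium (adjusted p = 0.0285). Its call was lost without nitrate replicate 2 or 3 or ammonium replicate 1 or 2 (adjusted p = 0.0508 to 0.105). Arginase releases urea from arginine. The arginase GL24613-G was lower, at 146 ± 7.61 FPKM in nitrate and 236 ± 21.4 FPKM in ammonium (adjusted p = 0.0246), a call lost without nitrate replicate 2 or 3 or ammonium replicate 2 or 3 (adjusted p = 0.0567 to 0.101). The others called lower were argininosuccinate lyase, GL24849-G, which makes arginine (log2 fold change -1.05, adjusted p = 0.0335), and ornithine aminotransferase, GL15529-G, which breaks ornithine down (-0.78, adjusted p = 0.0138). Without 1 library, the call of GL24849-G was lost in 4 of 6 fits and that of GL15529-G in 2 (highest adjusted p = 0.113 and 0.069). Ornithine decarboxylase, GL17083-G, makes putrescine. It stood at 417 ± 39.4 FPKM in nitrate and 257 ± 10.6 FPKM in ammonium (adjusted p = 0.0428), and the call was lost in each fit that left out 1 library (adjusted p = 0.0694 to 0.147).

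Copper carriers can supply the metal that copper amine oxidases need, and aldehyde dehydrogenases can use the aldehyde they make. The genes here were matched by description words alone, and their link to these oxidases was not tested. Of 3 copper transporters, none rose and 2 fell, while 7.5% of all tested genes were called higher and 8.13% lower. GL22574-G had 38.1, 50.8 and 61.6 FPKM in nitrate, against 237, 233 and 282 FPKM in ammonium, with every nitrate library far below every ammonium one (log2 fold change -2.34 ± 0.20, SE, adjusted p = 0.000613, edgeR). The other, GL16042-G, picked with its values in view, stood at 285 ± 61.2 FPKM in nitrate and 478 ± 32.8 FPKM in ammonium (adjusted p = 0.0334). Of the fits that left out 1 library, it passed only in the one lacking ammonium replicate 1 (adjusted p = 0.0551 to 0.118 in the others). Of 18 tested aldehyde dehydrogenases, 2 rose and 4 fell, against the same whole-table shares of 7.5% and 8.13%. In the 6 fits without 1 library, 0 to 1 were called higher and 1 to 3 lower, with the fewest calls without ammonium replicate 3 (0 and 1). GL26076-G was the only one of these called genes whose call held in all of these fits (adjusted p = 0.0106 to 0.0281). GL26076-G, whose identifiers include polyamine breakdown, stood at 4.49 ± 0.694 FPKM in nitrate and 11.5 ± 3.00 FPKM in ammonium (adjusted p = 0.00633).

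Among other nitrogen-releasing enzymes, 1 of 13 tested amidases rose and 2 fell, against 7.5% higher and 8.13% lower over all tested genes. The share of amidases that rose was near that of the whole table. The rise was lost without nitrate replicate 1 or 3 or ammonium replicate 1 or 2, and 1 in place of 2 was called lower without nitrate replicate 2 or 3 or ammonium replicate 3. The amidase GL20521-G stood at 6.26 ± 1.39 FPKM in nitrate and 17.5 ± 4.41 FPKM in ammonium (adjusted p = 0.00572). Of 3 D-aspartate oxidases, which act on acidic D-amino acids, GL19327-G fell, at 5.68 ± 1.27 FPKM in nitrate and 17.7 ± 5.38 FPKM in ammonium (adjusted p = 0.00793). The uricase GL23350-G and the allantoicase GL25254-G, steps of purine breakdown named after their values were seen, did not pass (adjusted p = 0.813 and 0.987).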

How the data were processed

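RNA sequencing libraries were made from mRNA of mycelia for the Illumina platform, per the labels' protocols. The authors deposited 1 table of 16113 genes with raw read counts, TPM and FPKM per library, per the file headers. For the aligner, counting tool, genome build, annotation version and use of strand, the entry is: not given in the sources used here. Tests used the counts, levels are the deposited FPKM, and TPM was not used further. KOG, GO and KEGG annotation covers 4997, 7069 and 1849 genes. Names of GO identifiers come from general knowledge.

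Titles gave the groups. The whole table was fitted in R 4.3.3 by edgeR 4.0.16 (robust quasi-likelihood test after filterByExpr and TMM scaling), and p-values were adjusted over all 11993 tested genes. The biological coefficient of variation was 0.248. Standard errors came from the F statistic, and 95% intervals from the test's degrees of freedom. Intervals are for single genes. Alternatives were RLE factors, no filter, DESeq2 1.42.0, a minimum of 50 counts in 3 libraries, limma-trend 3.58.1 on log2(FPKM + 1) or log2(FPKM + 0.1) for genes of at least 1 FPKM in 3 libraries, the former also with no filter, a replicate block, and each library left out. In fits on FPKM, fold changes are on the log2(value + pseudocount) scale. The edgeR and DESeq2 steps were tested on simulated data.

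The genes and lists were chosen with earlier results of these data known. The rule for named genes took every gene found by the description words, the called genes of the related list with the smallest adjusted p (at most 4 in each direction), the 3 genes of most like pattern, and direct neighbours. Genes found through GO identifiers (urease, nickel binding, urea and polyamine transport) and the spermidine or spermine synthases are outside this rule. Any other gene is marked in the text as chosen with its values known. Replicate numbers are taken from the titles, and the check of whether they pair the libraries is given with the alternatives.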

Additional observations from a re-analysis of the deposited data

How the results depend on the processing

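The calls of GL22585-G and GL22246-G held in all 15 alternatives, and that of GL22272-G in 14. GL22585-G met the stricter minimum of counts and the FPKM minimum for limma through its nitrate libraries alone. Its ammonium libraries lay below both minimums, so fits with these filters cannot test how its low ammonium level affects its call. The log2 fold change of GL22585-G ran from 2.32 with limma on log2(FPKM + 1) to 4.49 without both libraries numbered 1. With the replicate block, GL22272-G was at 2.19 and GL27396-G at 0.65 (log2, adjusted p = 0.0731 and 0.179), and 2 of the 5 genes were called higher. That block gave 85 genes higher and 140 lower over all genes, and 2 and 1 of the related list. Whether the replicate numbers pair the libraries was not settled. Deviations from the group means correlated at -0.66, -0.35 and -0.46 between libraries of the same number. Of 6 libraries, 0 correlated best with its own number. With 3 libraries per group, this check cannot exclude a shared batch. Without 1 library, the log2 fold change was 0.62 to 0.68 for GL27396-G and -0.22 to 0.10 for GL22112-G, which is never past the threshold. The number of the 5 genes called higher was then 3 to 4. Over all genes, the fits called 273 to 910 higher and 382 to 1036 lower, and in the related list 3 to 9 and 4 to 10. Such fits have fewer libraries. Without both libraries numbered 1, GL22112-G was at 0.10, counts over all genes were 2364 higher and 2534 lower, and related counts 21 and 20. With limma on log2(FPKM + 1) and no filter, 7 related genes were called lower, and the cause was not tested. Counts of 11 to 20 in ammonium limit the precision of the fold change of GL22585-G.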

Other observations

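Genes with identifiers of polyamine transport other than the urea transporter did not share its difference. None of the 4 such genes passed the test, and their log2 fold changes ran from -0.33 for GL21183-G to 0.34 for GL21772-G (adjusted p = 0.741 and 0.488, edgeR). Of the genes described as spermidine or spermine synthases, which build polyamines from putrescine, none passed, and their directions differed. GL30835-G stood at 4.39 ± 2.04 FPKM in nitrate and 2.50 ± 0.911 FPKM in ammonium (SD, n = 3 each, adjusted p = 0.169). GL27406-G stood at 2.61 ± 2.17 FPKM in nitrate and 5.29 ± 4.90 FPKM in ammonium (adjusted p = 0.543). GL23028-G stood at 17.7 ± 5.14 FPKM in nitrate and 18.3 ± 7.58 FPKM in ammonium (adjusted p = 0.917). These genes were looked up after the annotation was seen.

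The urea transporter GL22272-G and the copper amine oxidase GL22246-G lie on the same scaffold, 348739 bases apart. On that scaffold 32 of 285 tested genes, these 2 among them, were called higher, or 11.2%, against 7.5% of all tested genes. A further 24 were called lower. The other copper amine oxidases, GL27396-G and GL22112-G, lie 214997 bases apart on scaffold 18, where 9.73% were called higher. There 25 of 257 tested genes, GL27396-G among them, were called higher and 28 lower.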
